A study of Canis lupus familiaris with 16 samples.

Results

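The genes described here were the platelet-derived growth factors (PDGFs), the ligand of the receptor KIT, and the receptors of both: PDGFA, PDGFB, PDGFC, PDGFD, KITLG, PDGFRA, PDGFRB and KIT. They were chosen by name, because the receptors are targets of kinase inhibitors given to dogs and the others bind those receptors. All 8 were found among the 41818 genes of the count table.

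RNA was sequenced from formalin-fixed, paraffin-embedded (FFPE) sections of 16 canine soft tissue sarcomas, tumors that look much alike under the microscope. By their molecular identity 4 were fibrosarcomas (FS) and 6 were perivascular wall tumors (PWT). The other 6 were peripheral nerve sheath tumors (PNST). The comparisons asked which genes separate each type from the others. The dogs were of several breeds, the tumors lay at several sites, and no treatment was stated for any group. Ages were 9 to 13 years in FS, 8 to 13 in PNST and 2 to 14 in PWT. Histology gave 5 FS, 5 PNST and 6 PWT: PNST tumor 5 was a PWT and PWT tumor 4 an FS by histology. The molecular identity was set partly from expression in these same libraries, so the types were not independent of the values compared. No normal tissue was among the libraries. PNST tumors 2 and 3 had identical labels, which did not state whether they came from 1 dog. Titles began with S1 or S2, a possible sequencing group: S1 held 3 of 4 FS, 5 of 6 PNST and 1 of 6 PWT. Because PWT was mostly S2 and the other types mostly S1, prefix and type can be told apart only in part.

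PDGFs are secreted dimers that bind PDGF receptor alpha (the PDGFRA product) and beta (the PDGFRB product), which are receptor tyrosine kinases that drive growth and migration of mesenchymal cells. KITLG encodes stem cell factor, which binds the related receptor KIT on mast cells, melanocytes and blood progenitors. Fibroblasts commonly carry the alpha receptor, often together with the beta receptor, which pericytes and vascular smooth muscle also carry. Inhibitors such as toceranib and imatinib act on all of these kinases.

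Reads counted on genes ran from 507728 in FS tumor 3 to 4311876 in PNST tumor 1. The ranges were 507728 to 2781899 in FS, 1545839 to 4311876 in PNST and 726025 to 2234165 in PWT. Levels are given as CPM, counts relative to the library's total on genes scaled by the TMM factors of edgeR. Transcript lengths were not at hand, so levels were not compared between genes. The labels were checked against marker lists. The summed level of 10 Schwann cell markers had a median of 70.4 CPM in PNST, 69.6 in FS and 63.5 in PWT. The sum of 11 mural cell markers, of pericytes and smooth muscle, had a median of 419.9 CPM in PWT, 489 in PNST and 812 in FS. The Schwann cell sum was 46.8% GAP43, and its medians were near each other in the 3 types. All 5 Schwann cell markers tested had log2 fold changes above 0 in PNST against both others (median 0.36), and edgeR and DESeq2 called 0, with 1 at an unadjusted p under 0.05: S100B, at 2.28 (SE 0.75, adjusted p 0.205). The mural sum had its lowest median in PWT.

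A gene was called when its adjusted p was under 0.05 and its log2 fold change was above 1 in size. All 8 members passed the filter on low counts. For FS against both other types, 1 of 8 members was called (PDGFA, higher), beside 9.46% of all 15408 genes tested. For PNST against both others, 0 of 8 members were called by edgeR, beside 0% of all genes; 2 members had an unadjusted p under 0.05, and DESeq2 called 0, beside 291 of all genes. For PWT against both others, edgeR called 0 of 8, beside 2.12% of all genes; 0 members had an unadjusted p under 0.05, and DESeq2 called 0, beside 875 of all genes. Between pairs of types, 1 of 8 members was called for FS against PNST (PDGFRA, lower), beside 7.13% of all genes. FS against PWT gave 1 of 8 (PDGFA, higher), beside 11.2% of all genes. PNST against PWT gave 0 of 8 by edgeR, beside 0.169% of all genes, with 1 member at an unadjusted p under 0.05 and 0 called by DESeq2, beside 517 of all genes. With 8 members, 1 call is a share of 12.5%, near the shares over all genes. The calls by edgeR over all genes moved with single tumors. In PWT against both others they went from 327 to 11 without PWT tumor 6, 14 without PWT tumor 3, 148 without PWT tumor 2, 153 without PWT tumor 5, 212 without PNST tumor 4 and 216 without FS tumor 2. In FS they went from 1457 to 911 without FS tumor 2, in FS against PWT from 1726 to 1062 without the same tumor, and in FS against PNST from 1099 to 656 without PNST tumor 5. In PNST against PWT they went from 26 to between 0 and 226 over the fits without 1 tumor. These comparisons share tumors and are not independent of each other.

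The median log2 fold change of the 8 members in FS was 0.69 against both other types, beside 0.00 over all genes tested, and 7 of 8 were above 0, beside 50.2% of all genes. In PNST it was -0.18, beside -0.06 over all genes, with 2 of 8 above 0, beside 45.4%. In PWT it was -0.49, beside -0.08, with 2 of 8 above 0, beside 44.9%. Only PDGFA passed the threshold in FS, and several of the other values rested on 1 tumor. Without FS tumor 1 the FS value was -0.14 for PDGFC, 0.12 for PDGFD and 0.04 for PDGFRB, and without FS tumor 2 it was -0.42 for KIT.

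**Figure D1:**
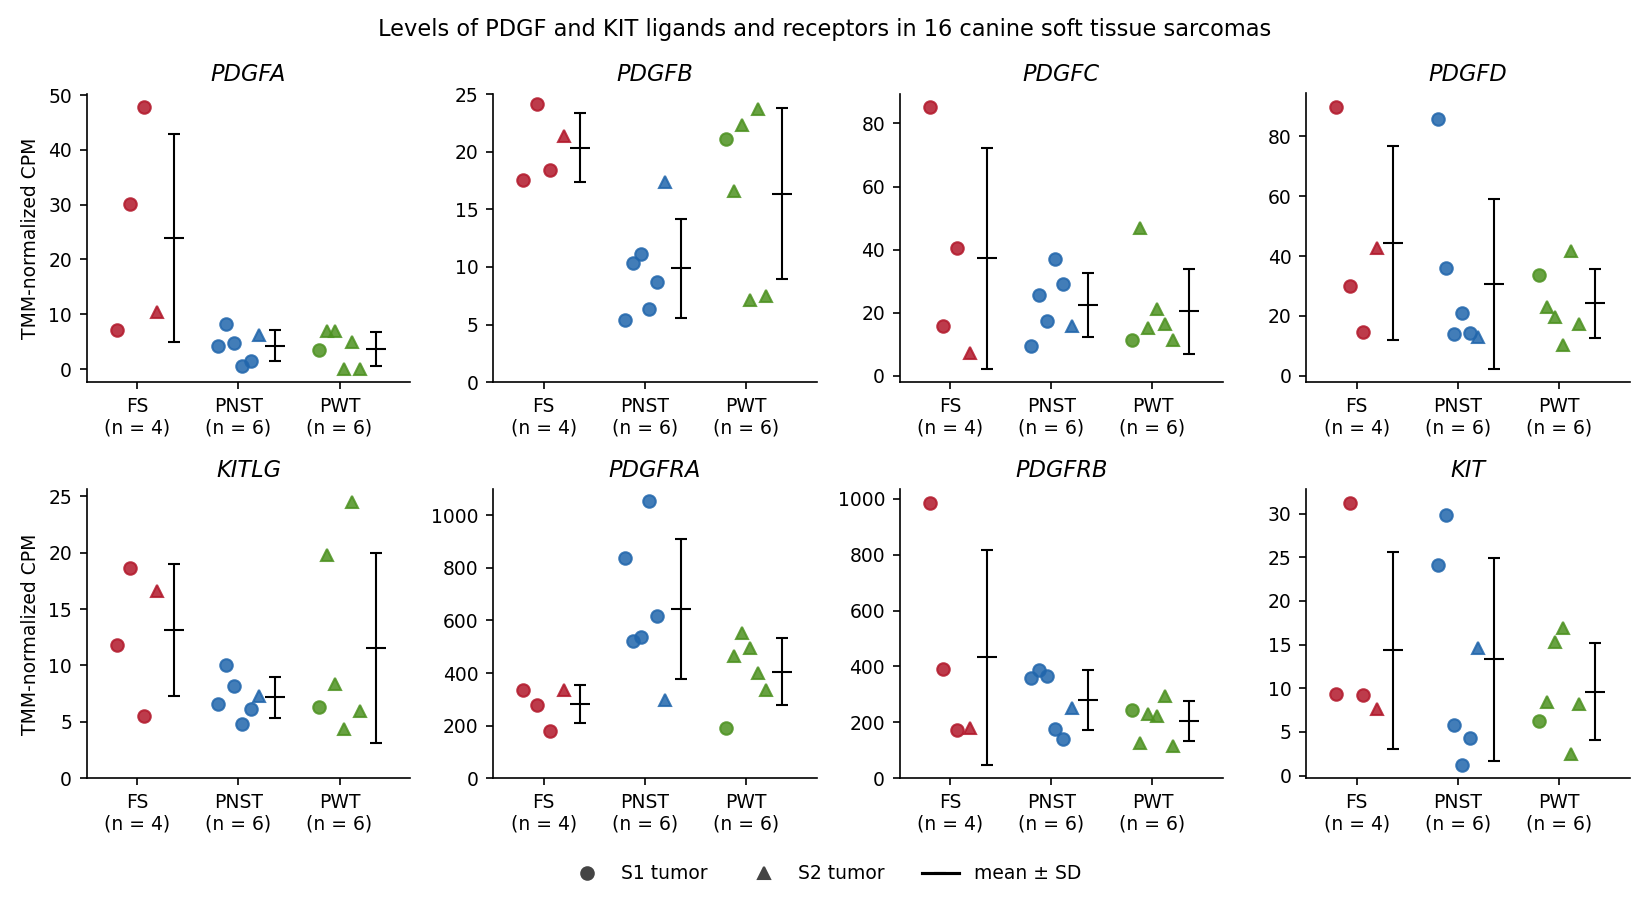
Level of each of the 8 genes in each tumor, in CPM, by tumor type; points are tumors, their shape gives the title prefix, and bars give mean ± SD. PDGFA was highest in FS tumors 2 and 3, and PDGFRA lay higher in 5 of 6 PNST than in any FS.

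PDGFA encodes the A chain, whose dimer binds the alpha receptor alone. In FS tumors 1 to 4 its level was 7.17, 30.2, 47.9 and 10.5 CPM, from 20, 55, 26 and 22 reads. In PNST it ran from 0.603 CPM in tumor 4, over a median of 4.47, to 8.17 in tumor 2. In PWT it ran from 0 CPM, over a median of 4.16, to 6.97 in tumor 3. PWT tumors 4 and 6 had no read, with exact Poisson 95% intervals that reach 2.02 and 2.76 CPM. All 4 FS lay above all 6 PWT, and 3 of 4 FS lay above all other tumors, while FS tumor 1 lay below PNST tumor 2. FS tumors 2 and 3 stood apart, with exact Poisson 95% intervals of 22.7 to 39.3 and 31.3 to 70.2 CPM, against 6.55 to 15.8 in FS tumor 4. Such intervals cover counting error only.

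The mean PDGFA level was 23.9 ± 18.9 CPM (SD, n = 4) in FS, 4.22 ± 2.84 (n = 6) in PNST and 3.69 ± 3.15 (n = 6) in PWT. Against both other types the fold in FS was 5.80 (log2 fold change 2.54, SE 0.65, 95% interval 1.18 to 3.89, adjusted p 0.0171). In bulk tissue, more cells of a kind and more RNA per cell cannot be told apart. The gene was called in 23 of 26 alternatives, which spanned 2.00 to 2.87 in log2 fold change and 0.00382 to 0.155 in adjusted p. The call ended without FS tumor 2 (2.37, adjusted p 0.0672), without FS tumor 3 (2.00, adjusted p 0.0792) and with the types taken from histology (2.07, adjusted p 0.155). Among the S1 tumors alone it was 2.85 (adjusted p 0.0381), and with prefix as a term of the model 2.47 (adjusted p 0.0317). S2 held 1 FS, at 10.5 CPM, above its 5 PWT and 1 PNST, which reached 6.97 CPM.

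By pairs of types, PDGFA was 6.30-fold higher in FS than in PWT (log2 2.65, SE 0.82, adjusted p 0.0404). That call held in 16 of 25 alternatives, with adjusted p from 0.0110 to 0.210. It ended when FS tumor 2 (adjusted p 0.102), FS tumor 3 (0.111), PWT tumor 1 (0.0652), PWT tumor 4 (0.0593), PWT tumor 5 (0.0560) or PWT tumor 6 (0.0670) was left out. It also ended by histology (0.210), without both relabeled tumors (0.0630) and with prefix as a term (log2 2.57, 0.143). Against PNST the log2 fold change was 2.44 (SE 0.78, adjusted p 0.0634) and was not called by edgeR. It passed in 4 of 26 alternatives, with adjusted p from 0.0230 to 0.399: under DESeq2 (2.51, 0.0230) and without FS tumor 1 (2.77), PWT tumor 4 (2.44) or PWT tumor 6 (2.44). Among S1 tumors it was 2.83 (adjusted p 0.0702). The order was FS, PNST, PWT, and the last pair did not differ beyond their spread (log2 0.21, adjusted p 0.897). Against both others together PNST gave -1.40 (SE 0.84, adjusted p 0.424) and PWT -1.62 (SE 0.87, adjusted p 0.281), neither called under any alternative.

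Other values moved with PDGFA among the FS. The mural marker sum was 1796 CPM in FS tumor 2 and 1112 in FS tumor 3, against 339 and 512 in FS tumors 1 and 4 and 270.0 to 619.7 over PNST and PWT. All 11 markers passed the filter, and 10 had log2 fold changes above 0 in FS. RGS5, the most abundant, went the other way (-0.39, adjusted p 0.607). In FS 3 (ACTA2, CNN1 and MCAM), or 27.3%, were called higher, beside 9.46% of all genes. Without FS tumor 2 none of these 3 was called, at log2 fold changes of 1.28, 0.80 and 0.65. Over the 16 fits without 1 tumor ACTA2 and CNN1 were each called in 15 and MCAM in 9. FS tumor 2 also had the highest fibroblast, endothelial and skeletal muscle marker sums of the FS, at 100453, 505.5 and 2078 CPM, where the other FS had at most 26665, 289 and 28.3. FS tumor 3 had the fewest reads and 670 CPM of keratinocyte markers. The part of these in the PDGFA result was not tested.

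PDGFB encodes the B chain, which binds both receptors and is made by endothelium and platelets. Its level in FS tumors 1 to 4 was 17.6, 24.1, 18.4 and 21.4 CPM. It ran from 5.40, over a median of 9.53, to 17.4 CPM in PNST, and from 7.11, over 18.8, to 23.7 in PWT. All 4 FS lay above all 6 PNST, narrowly so for PNST tumor 6 at 17.4 CPM, whereas 3 of 6 PWT lay inside the range of FS. FS had the smallest SD, at 20.4 ± 2.99 CPM (SD, n = 4), beside 9.88 ± 4.29 in PNST and 16.4 ± 7.43 in PWT (n = 6 each). In FS this spread was 14.7% of the mean, below the counting error of 19.6%, so it does not show how even FS are.

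The log2 fold change of PDGFB for FS against PNST was 1.06 (SE 0.38, adjusted p 0.0977), which was not called. Without PNST tumor 6 it was 1.29 and was called (adjusted p 0.0486), the only one of 26 alternatives to pass, in a range of adjusted p from 0.0486 to 0.450. Among S1 tumors it was 1.29 (adjusted p 0.0681). PNST against both others gave -0.87 (SE 0.32, adjusted p 0.231) and -1.30 among S1 tumors (adjusted p 0.240), within adjusted p of 0.113 to 0.617 over 26 alternatives. The order of mean levels was FS, PWT, PNST, and no neighbors in it were called. Log2 fold changes were 0.33 for FS against PWT and -0.73 for PNST against PWT (95% interval -1.47 to 0.006, edgeR adjusted p 0.258). The endothelial marker sum, led by VWF, had medians of 287, 385 and 355 CPM in FS, PNST and PWT, with 0 of 10 markers called for FS by edgeR, 1 at an unadjusted p under 0.05 and 1 called by DESeq2. Of 5 platelet markers 3 were in the table, led by ITGA2B, with summed medians of 4.89, 6.29 and 3.91 CPM. The part of either cell type in PDGFB was not tested.

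PDGFC encodes a chain that is secreted in latent form, is cut by proteases and binds mainly the alpha receptor. Its level in FS tumors 1 to 4 was 85.3, 15.9, 40.5 and 7.13 CPM. It ran from 9.38, over a median of 21.6, to 37.1 CPM in PNST, and from 11.2, over 15.8, to 46.8 in PWT. FS tumor 1 had the highest level of all tumors and FS tumor 4 the lowest, so the FS spanned both other types. The log2 fold change in FS was 0.78 (SE 0.48, adjusted p 0.325) against both others. Without FS tumor 1 its sign turned, to -0.14, and the FS against PNST value went from 0.73 to -0.20. Within S1 the FS value was 1.16 (adjusted p 0.217), over a range of adjusted p from 0.123 to 0.915. In PWT the value was -0.44, but 0.18 with prefix as a term and 1.02 among S2 tumors. No order of the 3 types in PDGFC held beyond the spread, at 37.2 ± 35.1, 22.4 ± 10.1 and 20.4 ± 13.5 CPM in FS, PNST and PWT.

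PDGFD encodes the other latent chain, which binds mainly the beta receptor. Its level in FS tumors 1 to 4 was 90.0, 30.2, 14.7 and 42.8 CPM. In PNST it ran from 12.9, over a median of 17.5, to 85.8 CPM in tumor 1, and in PWT from 10.4, over 21.3, to 41.7. FS tumor 1 and PNST tumor 1 stood far above the rest of their types, and the 3 types overlapped. The log2 fold change in FS against both others was 0.72 (SE 0.48, adjusted p 0.375) and 0.12 without FS tumor 1; within S1 it was 0.47. For FS against PNST it was 0.56, and -0.04 without FS tumor 1. The order of means was FS, PNST, PWT (44.4 ± 32.5, 30.6 ± 28.4 and 24.2 ± 11.5 CPM), and no neighbors differed beyond their spread. Genes annotated over the same bases were found for PDGFB and PDGFD alone. For PDGFD these were DDI1, with up to 40 reads in a tumor, and 2 loci with no gene name, with up to 104 and 6. For PDGFB they were a locus with no gene name, with up to 4 reads, and TRNAE-CUC, with up to 804 reads under that name. Whether any of these reads belong to the members was not tested.

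KITLG encodes the ligand of KIT. Its level in FS tumors 1 to 4 was 11.8, 18.6, 5.52 and 16.6 CPM. It ran from 4.83, over a median of 6.91, to 10.1 CPM in PNST, and from 4.37, over 7.31, to 24.5 in PWT. In FS, 3 of 4 tumors lay above all 6 PNST; in PWT, tumors 2 (19.8 CPM) and 5 (24.5 CPM) lay above every FS and the other 4 tumors lay at 8.36 CPM or less. FS against PNST gave a log2 fold change of 0.92 (SE 0.46, adjusted p 0.239), and 0.84 within S1; it was called in 0 of 26 alternatives, with adjusted p from 0.156 to 0.621. PNST against both others gave -0.79 (SE 0.38, adjusted p 0.325). In PWT the value was 0.27, and -0.08 without PWT tumor 5. The order of means was FS, PWT, PNST (13.2 ± 5.84, 11.6 ± 8.45 and 7.17 ± 1.80 CPM), with no neighbors different beyond their spread. The summed level of 8 keratinocyte markers, led by KRT5, was 938 CPM in PWT tumor 2 but 30.2 in PWT tumor 5, and its part in KITLG was not tested.

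PDGFRA encodes the alpha receptor. In FS tumors 1 to 4 its level was 336, 279.6, 180.5 and 334 CPM. In PNST it ran from 297 CPM in tumor 6, over a median of 576, to 1054 in tumor 4. In PWT it ran from 193 CPM in tumor 1, over 431, to 550.5 in tumor 3. In PNST, 5 of 6 tumors lay above all 4 FS and 3 of 6 lay above all PWT, and PNST tumor 6 lay inside the FS range. In PWT, 4 of 6 lay above all FS. PDGFRA was read deeply, from 98 reads in FS tumor 3 to 3495 in PNST tumor 4. Counting error was 2.39% to 4.89% of the type means, against a spread between tumors of 25.8% in FS, 41.3% in PNST and 31.8% in PWT.

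PDGFRA was 2.27-fold lower in FS than in PNST (log2 -1.18, SE 0.36, 95% interval -1.93 to -0.44, adjusted p 0.0498). That value lay just under the threshold and passed in 4 of 26 alternatives, which spanned -1.39 to -1.0 in log2 fold change and 0.0130 to 0.292 in adjusted p. Those 4 were upper quartile factors, DESeq2 (-1.15, 0.0130), and the fits without PWT tumor 1 or PNST tumor 6. Leaving out any other tumor ended the call. For FS tumors 1 to 4 the adjusted p was then 0.0618, 0.0937, 0.111 and 0.0715, and for PNST tumors 1 to 5 it was 0.0954, 0.0551, 0.0631, 0.0981 and 0.0773. For PWT tumors 2 to 6, whose levels are not part of this difference, it was 0.0505, 0.0561, 0.0556, 0.0597 and 0.0567. The smallest fold changes were -1.0 without PNST tumor 4 and -1.02 without FS tumor 3. Within S1 it was -1.39 (adjusted p 0.0632), and in S2 FS tumor 4 (334 CPM) lay above PNST tumor 6 (297 CPM). Every alternative kept the direction, and most lost the call.

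**Figure D2:**
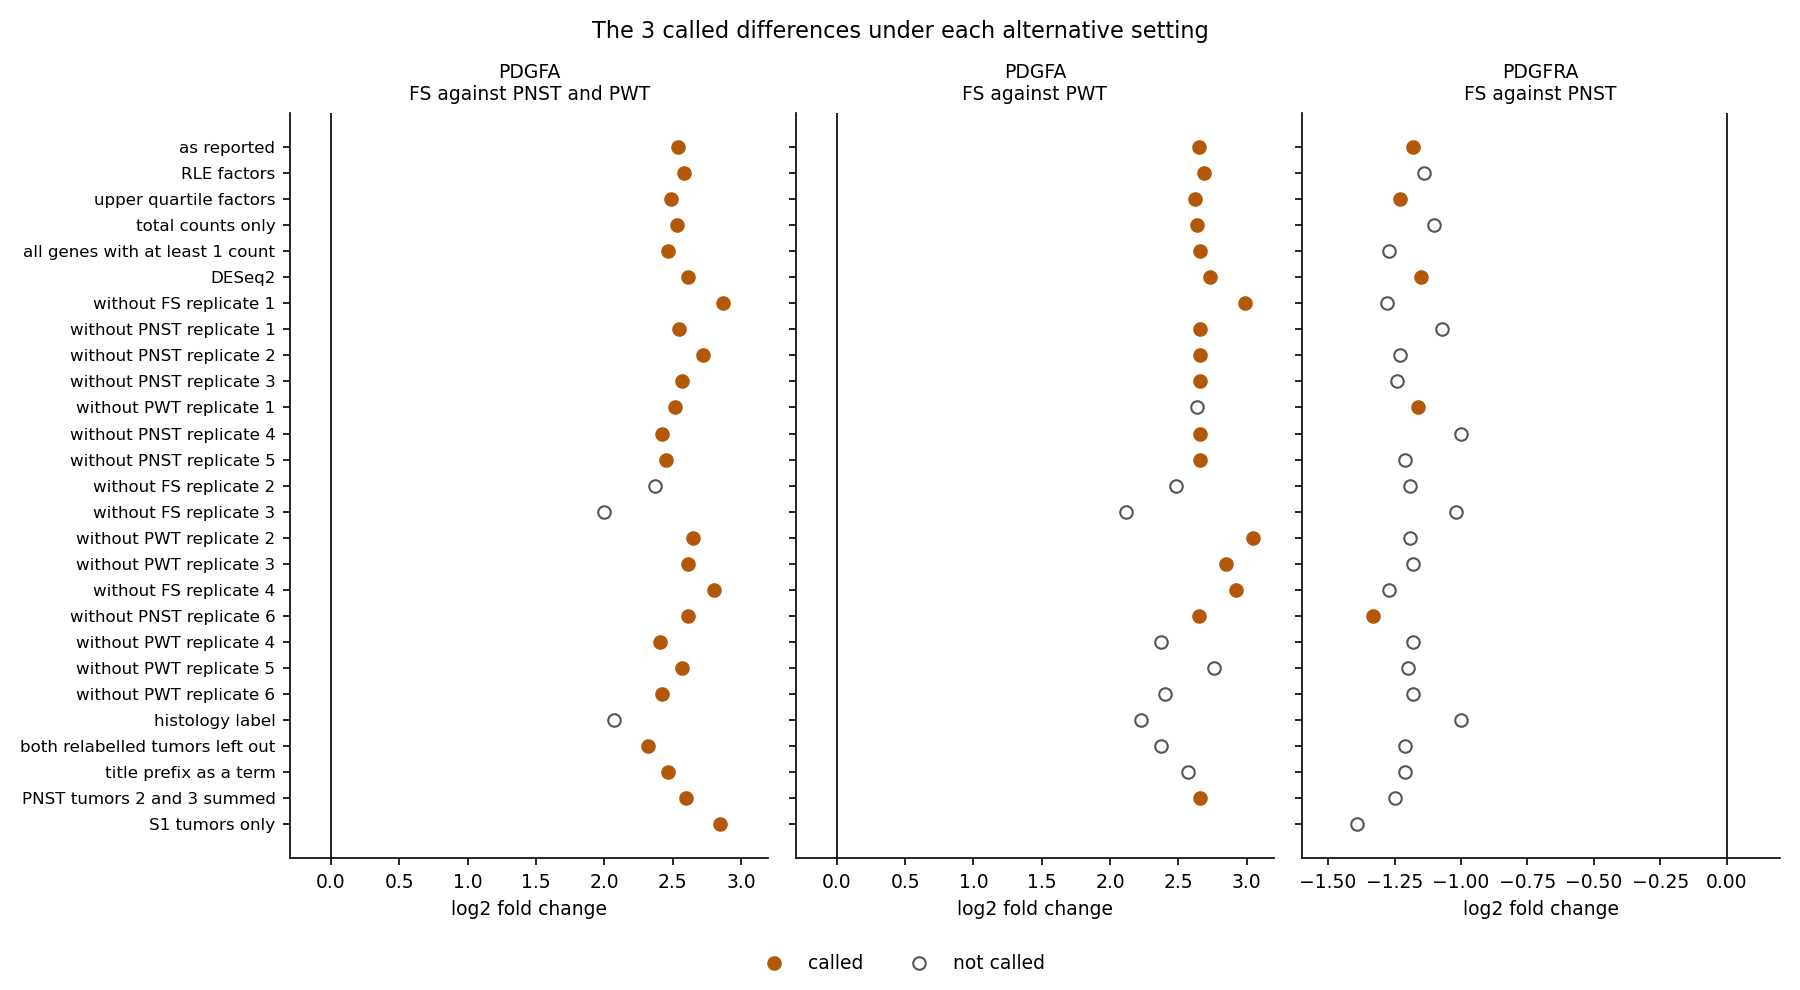
Log2 fold change of PDGFA and PDGFRA in the 3 differences that were called, under each alternative processing and without each tumor (replicate) in turn; filled points were called. PDGFA in FS stayed between 2.00 and 2.87 and PDGFRA in FS against PNST between -1.39 and -1.0.

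Against both other types PDGFRA gave -0.89 in FS (SE 0.36, adjusted p 0.124), with 0 of 26 alternatives called and adjusted p from 0.0694 to 0.354. PNST against both others gave 0.85 (SE 0.29, adjusted p 0.210), and 1.5 within S1 (adjusted p 0.240). Of the 6 PNST, 5 lay above the median of the other tumors. In PWT the value was -0.30, but 0.52 among S2 tumors, where 5 PWT stood against 1 FS and 1 PNST. The order of means was PNST, PWT, FS (644 ± 266, 406 ± 129 and 283 ± 73.1 CPM). PNST against PWT gave a log2 fold change of 0.67 (95% interval 0.02 to 1.31). Its unadjusted p in edgeR was 0.0437, and it was not called after adjustment over all genes (adjusted p 0.241). PWT and FS did not differ beyond their spread (FS against PWT -0.52, adjusted p 0.346). Of the relabeled tumors, PNST tumor 5 had 615 CPM, above all PWT. PWT tumor 4 had 496 CPM, above all FS but also inside the range of PNST. Because the molecular types were set partly from these libraries, these values are no independent check of them.

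PDGFRB encodes the beta receptor. In FS tumors 1 to 4 its level was 987, 391, 171 and 179 CPM. It ran from 139.9, over a median of 305, to 387 CPM in PNST, and from 116, over 226, to 296 in PWT. FS tumors 1 and 2 lay above all other tumors, FS tumor 1 far above, while FS tumors 3 and 4 lay below the medians of both other types. FS against PWT gave a log2 fold change of 1.08 (SE 0.45, adjusted p 0.121), FS against both others 0.84 (SE 0.40, adjusted p 0.190), and neither was called. FS against PNST gave 0.63. Without FS tumor 1 these 3 values were 0.28, 0.04 and -0.17. With prefix as a term FS against PWT was 0.66. In PWT against both others the value was -0.73 (SE 0.39, adjusted p 0.275), -0.31 with prefix as a term and -0.12 among S2 tumors. The order of means was FS, PNST, PWT (432 ± 384, 279.8 ± 106 and 206 ± 70.9 CPM), and no neighbors differed beyond their spread.

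FS tumor 1, highest in PDGFC, PDGFD and PDGFRB, also had the highest macrophage marker sum of the 16 tumors, at 1171 CPM; the others lay between 129 and 759.6. All 9 macrophage markers were in the table, MRC1 was the most abundant, and C1QB was the only one called higher in FS (log2 1.5, adjusted p 0.0488), but 0.31 without FS tumor 1 and called in 7 of 26 alternatives. FS tumor 1 also had 1114 CPM of keratinocyte markers, but PNST tumor 3 had 1124, PNST tumor 2 had 807 and FS tumor 3 had 670 CPM, and PNST tumor 3 had PDGFC, PDGFD and PDGFRB at 17.5, 14.0 and 364 CPM. The part of either cell type in the 3 high values was not tested.

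KIT encodes the receptor of stem cell factor. Its level in FS tumors 1 to 4 was 9.32, 31.3, 9.21 and 7.60 CPM, from 26, 57, 5 and 16 reads. It ran from 1.21, over a median of 10.2, to 29.9 CPM in PNST, and from 2.45, over 8.35, to 16.9 in PWT. FS tumor 2 and PNST tumors 1 and 2 (24.2 and 29.9 CPM) were the highest, and the 3 types overlapped. Fold changes for FS were 0.33 (log2, adjusted p 0.786) against both others, 0.12 against PNST and 0.61 against PWT. Without FS tumor 2 these were -0.42, -0.63 and -0.14. Means were 14.3 ± 11.3, 13.3 ± 11.6 and 9.62 ± 5.52 CPM in FS, PNST and PWT, and no neighbors in that order differed beyond their spread. Within S1 the FS value was 0.51, and the PNST value went from 0.22 in all tumors to -0.13.

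Levels of KIT were set beside marker lists of cells that carry it. Of 9 mast cell markers 7 were in the table, led by HPGDS, and TPSAB1 and TPSB2 were not. Their sum was 19.7 CPM in FS tumor 2 and 20.1 in PNST tumor 2 but 3.98, the lowest of all, in PNST tumor 1, and CPA3 was at 0 in 1 of 4 FS and 3 of 6 PNST. Of the 2 mast cell markers tested, HPGDS was called higher in PWT (log2 1.40, SE 0.30, adjusted p 0.0263) and GATA2 went the other way (-1.22, adjusted p 0.259). HPGDS was called in 19 of 26 alternatives, and not with all genes (1.31), by histology (1.19), with prefix as a term (1.20, adjusted p 0.352), among S2 tumors (1.56) or without PWT tumors 2 (1.23), 3 (1.32) or 6 (1.32). The melanocyte sum was 87.0% MITF, and TYR was at 0 in 3 of 4 FS, 4 of 6 PNST and all 6 PWT. MITF was called lower in FS (log2 -2.02, adjusted p 0.00188), and in 25 of 26 alternatives, all but histology, while PMEL, the other melanocyte marker tested, went the other way (0.51, adjusted p 0.398). The 3 tumors high in KIT were thus not alike in mast cell markers, and the part of either cell type in KIT was not tested.

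**Figure D3:**
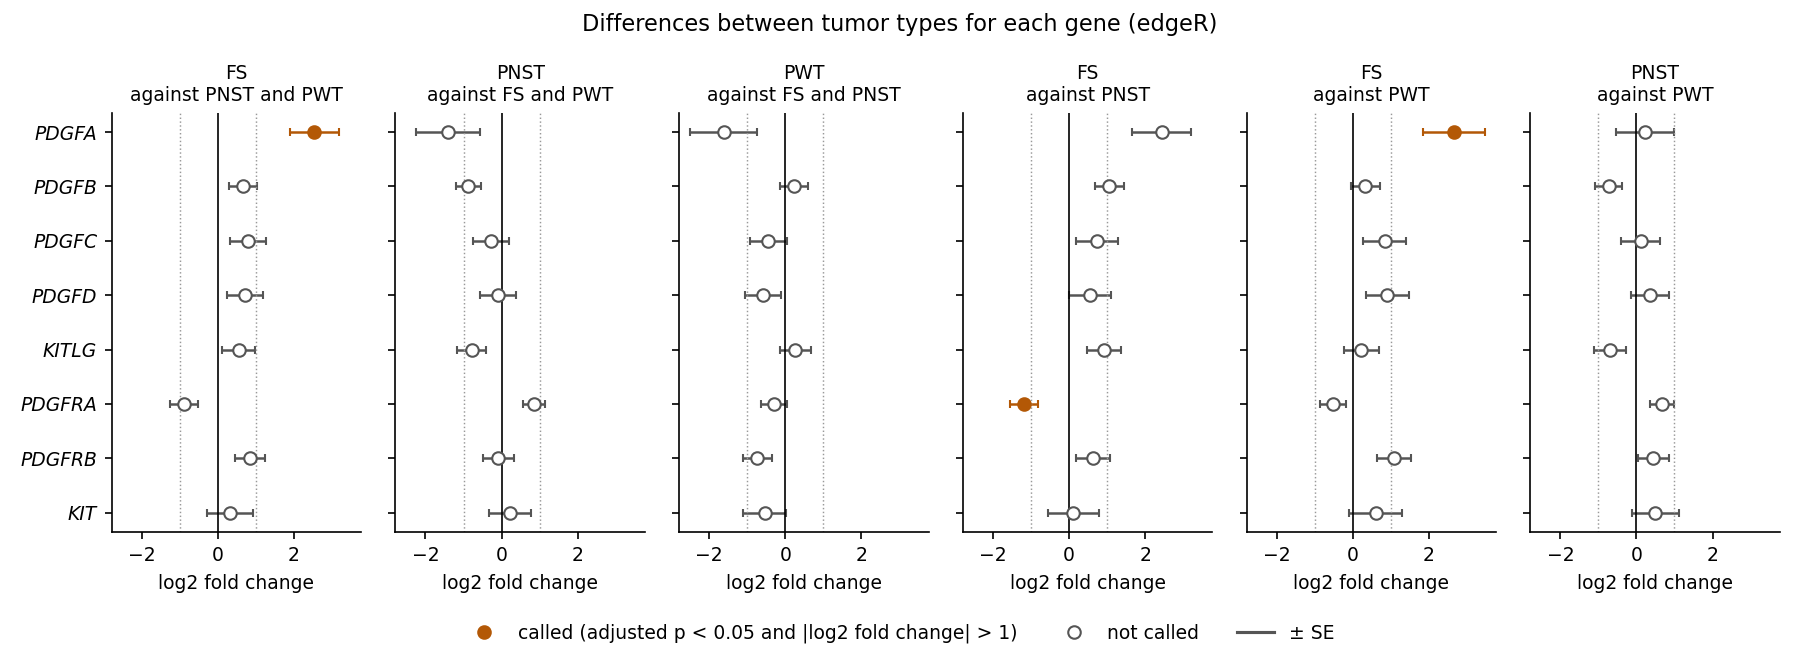
Log2 fold change of each of the 8 genes from edgeR with its SE, for each type against both others and for each pair of types; filled points were called. PDGFA in FS against both others (2.54), PDGFA in FS against PWT (2.65) and PDGFRA in FS against PNST (-1.18) were called.

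The ratio of PDGFRA to PDGFRB was compared only across tumors, was chosen after the values were seen, and was not tested. It was 0.341, 0.714, 1.05 and 1.87 in FS tumors 1 to 4. In PNST it ran from 1.17, over a median of 1.90, to 5.98, and in PWT from 0.788, over 2.31, to 3.72. The lowest ratios were those of FS tumors 1 and 2 and PWT tumor 1, all with the S1 prefix, and the highest were those of PNST tumors 4 and 5. FS and the other types overlapped, since FS tumor 4 lay above 3 of 6 PNST.

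Ligands were set against receptors they bind, and PDGFRA against PDGFRB, over the 16 tumors, in 6 pairs on log2(CPM + 1), with 2-sided permutation tests adjusted over the 6. PDGFD and PDGFRB had Pearson's r of 0.61 (permutation p 0.0122, adjusted p 0.0733) and Spearman's rho of 0.42 (permutation p 0.109, adjusted p 0.334). Without FS tumor 1 and PNST tumor 1, farthest from the median of PDGFD, r was 0.28. Leaving out the most extreme tumors also narrows the range, so this drop cannot show that the relation rests on them. Over all tumors of a prefix r was 0.74 in S1 (n = 9) and 0.06 in S2 (n = 7), and the relation did not hold within S2. After each type's mean was taken off r was 0.57. Leaving out PNST tumor 3 (0.69) or FS tumor 4 (0.67) brought its adjusted p under 0.05.

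PDGFA and PDGFRA had r of -0.50 (permutation p 0.0491, adjusted p 0.147) and rho of -0.41 (permutation p 0.111, adjusted p 0.334). Within S1 r was -0.71 and within S2 -0.06; without the 2 tumors farthest from the median, FS tumor 3 and PWT tumor 4, it was -0.34. Within types it was -0.35. The relation did not pass the adjusted threshold, and the difference between the prefixes was not tested.

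KITLG and KIT had r of 0.04 (permutation p 0.878, adjusted p 0.902) and rho of 0.12 (permutation p 0.666, adjusted p 0.799). The prefixes went opposite ways, with r of 0.67 in S1 (n = 9) and -0.78 in S2 (n = 7), so the pooled value held in neither. Neither value nor their difference was tested, and both genes had as few as 3 reads in a tumor. Without PWT tumors 5 and 2, highest in KITLG, the pooled r was 0.39. PDGFC with PDGFRA gave r of 0.06 (permutation p 0.814, adjusted p 0.902) and rho of 0.13 (permutation p 0.641, adjusted p 0.799), with -0.06 in S1, 0.52 in S2 and 0.16 without the 2 farthest tumors. PDGFB with PDGFRB gave r of 0.19 (permutation p 0.495, adjusted p 0.902) and rho of 0.28 (permutation p 0.299, adjusted p 0.598), with 0.26 in S1, 0.45 in S2 and 0.27 without the 2 farthest. PDGFRA with PDGFRB gave r of -0.03 (permutation p 0.902, adjusted p 0.902) and rho of -0.01 (permutation p 0.970, adjusted p 0.970), with -0.10 in S1, 0.09 in S2 and -0.04 without the 2 farthest. None of the 6 pairs passed after adjustment, and 2 had an unadjusted permutation p under 0.05 for Pearson's r.

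**Figure D4:**
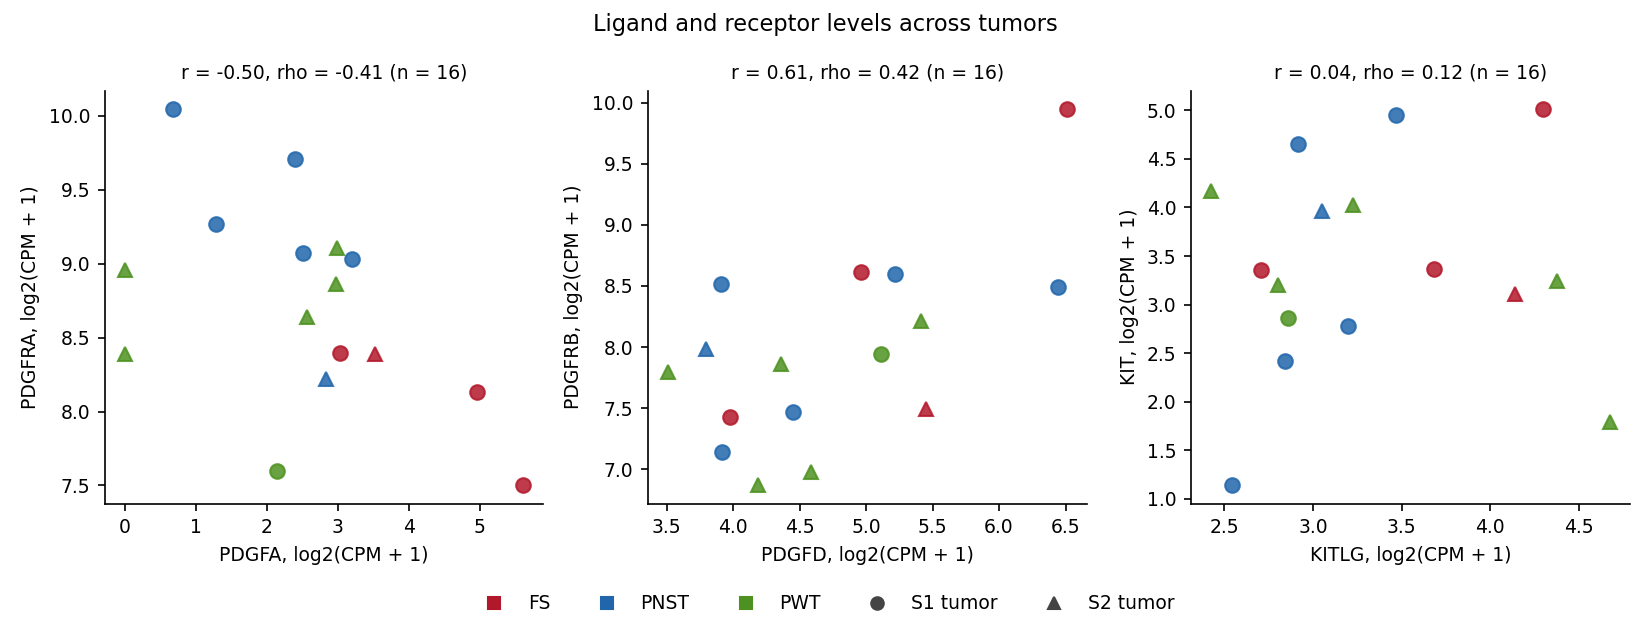
Level of ligand and receptor in each of the 16 tumors as log2(CPM + 1), for PDGFA and PDGFRA, PDGFD and PDGFRB, and KITLG and KIT; color gives the tumor type and shape the title prefix. FS tumor 1 and PNST tumor 1 lie at the right in the middle panel, and r was 0.28 without them.

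The 3 genes most like each member over the 16 tumors were taken by Pearson's r on log2(CPM + 1) among 9615 genes with a mean of at least 10 CPM. For PDGFA they were PALM2AKAP2 (0.94), TRPS1 (0.93) and DYSF (0.92). For PDGFB they were ITGA1 (0.87), EMB (0.83) and REL (0.83), and for KITLG they were PHLDA1 (0.87), EMB (0.87) and CYTIP (0.86). PDGFA thus had the closest neighbors of the 8, and PDGFB and KITLG shared EMB. For PDGFC they were ERAP1 (0.77), C1QB (0.77) and CRAT (0.74), and for PDGFD IL1R1 (0.82), ACSL3 (0.79) and ACSS1 (0.75). For PDGFRB they were CD63 (0.88), MANBA (0.83) and CTSA (0.82). Without FS tumor 1 r was 0.64 for ERAP1, 0.61 for C1QB, 0.63 for ACSS1, 0.67 for MANBA and 0.65 for CTSA. For PDGFRA they were MED13L (0.78), FN1 (0.78) and NOP9 (0.77), and for KIT HEBP1 (0.77), KANSL2 (0.76) and ASB8 (0.75). Without PNST tumor 4 r was 0.66 for HEBP1, 0.66 for KANSL2 and 0.62 for ASB8. Within the prefixes r differed both ways. It was higher in S2 than in S1 for some, as for EMB with KITLG (0.95 and 0.72), CYTIP (0.94 and 0.81), ITGA1 (0.93 and 0.83) and ASB8 (0.89 and 0.72), and lower in S2 for others, down to 0.12 for NOP9 (0.83 in S1), 0.23 for ACSS1 (0.87), 0.53 for C1QB (0.85) and 0.54 for CRAT (0.93). With this many candidates high values of r arise by selection.

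Other genes of the pathway were taken from lists by role. Beside them edgeR called 9.46% of all genes in FS, with a median log2 fold change of 0.00, and 2.12% in PWT. DESeq2 called 2090 of all genes in FS. The first list held proteases that cut latent PDGFs, co-receptors and other extracellular proteins such as SPARC. Of its 7 tested genes DESeq2 called 3 in FS. These were PLAU, SPARC (adjusted p 0.0212) and NRP1 (adjusted p 0.0329). In edgeR SPARC was higher (log2 1.21) and NRP1 lower (log2 -1.13), neither called. By edgeR 1 (14.3%) was called higher in FS, 0 lower, with a median log2 fold change of 0.80. This was PLAU, the urokinase that can cut PDGF-D, at 1.84 to 87.9 CPM (median 15.7) in FS, 1.99 to 9.35 in PNST and 0 to 6.97 in PWT (log2 3.00, SE 0.62, adjusted p 0.00452). The types overlapped in PLAU because 1 FS lay at 1.84 CPM, and the call ended without FS tumor 4 (1.61, adjusted p 0.127), by histology (2.65, adjusted p 0.0569) and within S1 (1.48, adjusted p 0.237). Of 26 signaling genes downstream of the receptors, DESeq2 called 2 in FS, and edgeR called 1 (3.85%) higher, 0 lower (median 0.37). This was PLCG1, which encodes a phospholipase that binds activated PDGF receptors, at 124 to 208 CPM in FS, 56.4 to 96.7 in PNST and 27.7 to 64.5 in PWT (log2 1.41, SE 0.26, adjusted p 0.00233). All 4 FS lay above all other tumors, and PLCG1 was called in FS under all 26 alternatives. It was also called lower in PWT (-1.28, SE 0.30, adjusted p 0.0350), in 15 of 26 alternatives; that call ended without FS tumor 2 (-1.19) or PWT tumors 1 (-1.21), 2 (-1.32), 3 (-1.31), 5 (-1.26) or 6 (-1.17), with total counts only (-1.28), by histology (-1.07), without the relabeled tumors (-1.43), with prefix as a term (-1.33, adjusted p 0.275) and among S2 tumors (-1.14).

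Of 12 negative regulators edgeR called 0 in FS (median 0.28), with 5 at an unadjusted p under 0.05 and 1 called by DESeq2. PTPN2, a tyrosine phosphatase, was called higher in PWT, at 42.7 to 85 CPM beside 18.4 to 43.2 in FS and 23.5 to 38.8 in PNST (log2 1.06, SE 0.21, adjusted p 0.0219). It was called in 18 of 26 alternatives. The call ended without FS tumor 1 (1.00), PWT tumor 3 (0.94) or PWT tumor 6 (1.10), with total counts only (1.03), all genes (0.97), histology (0.77) or prefix as a term (0.74, adjusted p 0.349), and among S2 tumors (0.79). Of 13 related receptors and ligands DESeq2 called 1 in FS, and edgeR called 1 (7.69%) higher, 0 lower (median -0.08). This was FLT4, a receptor of lymphatic endothelium, at 55.6 to 242 CPM in FS, 28.0 to 63.7 in PNST and 13.5 to 36.8 in PWT (log2 1.84, SE 0.36, adjusted p 0.00325), called in 25 of 26 alternatives, all but histology. Leaving out 1 tumor gave log2 fold changes from 1.16 to 2.08.

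Of 20 tested response genes DESeq2 called 3 in FS, and edgeR called 2 (10%) higher, 0 lower (median 0.01). SPRED1, which restrains RAS signaling, had 91.0 to 285 CPM in FS and at most 87.8 in the others (log2 1.43, SE 0.29, adjusted p 0.00387), and 0.95 without FS tumor 3, which ended its call, as did histology (1.16). ETV1, a transcription factor, had 5.52 to 132 CPM in FS and at most 37.0 in the others (log2 2.41, SE 0.63, adjusted p 0.0206), and 0.94 without FS tumor 1, which ended its call, as did histology (2.00). In PNST edgeR called 0 genes of these 5 lists, with 2, 5, 2, 2 and 5 at an unadjusted p under 0.05 in the order given, and DESeq2 called 1, a response gene. In PWT edgeR called 1 signaling gene lower and 1 negative regulator higher, as given, where DESeq2 called 2 and 1. Of the other 3 lists edgeR called 0 in PWT, with 3, 1 and 4 genes at an unadjusted p under 0.05 and 1 called in each by DESeq2.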

How the data were processed

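The authors deposited read counts per gene and sequencing run, made with HTSeq (version not given) from reads aligned with STAR2 to ROS-canfam-01; the strand setting was not given in the sources used here. All 34 columns matched a tumor (0 did not), and the 3 runs of each S1 tumor were summed. Of all reads, 22.9% to 30.6% fell on genes, 41.8% to 66.7% on no feature, 9.11% to 31.6% aligned more than once and 0.410% to 1.68% were ambiguous. Over the 3 runs of a tumor, chi-squared per degree of freedom was 1.18 to 1.77 over all genes and 0.767 to 1.61 for the members. Between PNST tumors 2 and 3 it was 11.3 over all genes, above that of repeat runs and the lowest of the 15 PNST pairs (next 16.6).

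Genes that reached 10 counts in 4 or more of the 16 tumors (15408) were fitted with edgeR 4.0.16 (limma 3.58.1, R 4.3.3; TMM factors, quasi-likelihood F test, Benjamini-Hochberg over all genes), each type against both others pooled and each pair of types in 1 fit. DESeq2 1.42.0, other factors and filters, histology labels, a prefix term and leaving out each tumor were alternatives; fits within a prefix were chosen after seeing the data. The code was tested on simulated data. Correlations used log2(CPM + 1), 100000 permutations, Python 3.11.15, numpy 2.4.6, scipy 1.17.1 and pandas 2.3.3; figures used matplotlib 3.10.9. Overlapping genes were read from the UU_Cfam_GSD_1.0 annotation, a different build.

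All 8 members were named. Pathway genes were named when called for a type against both others, at most 4 per list and comparison, and the 3 most-like genes of each member by Pearson's r, among genes with a mean of at least 10 CPM and a gene name. Of 183 list symbols 179 were in the table. The members and lists were chosen with earlier results of these data known.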

Additional observations from a re-analysis of the deposited data

Results flagged for a closer look

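Within each tumor type, a tumor was set apart when its gap to the nearest other tumor was above Dixon's 95% critical share of the range. For normally distributed values chance does this in about 1 in 20 groups. The CPM were not transformed, and each tumor set apart was the highest of its group. The chance rate for such values was not worked out, so the counts below cannot show an excess over chance. Of 24 groups of a member and a type, 3 had such a tumor. PDGFC in PWT tumor 2 was 46.8 CPM, where the other 5 PWT had 11.2 to 21.3. PDGFD in PNST tumor 1 was 85.8 CPM, where the others had 12.9 to 36.1. KIT in FS tumor 2 was 31.3 CPM, where the others had 7.60 to 9.32.

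Of 33 groups of a marker list and a type, 9 had such a tumor, 3 of them FS tumor 2. Its fibroblast sum was 100453 CPM (others 17873 to 26665), its endothelial sum 505.5 (others 257.8 to 289) and its skeletal muscle sum 2078 (others 11.0 to 28.3). The fibroblast sum of PNST tumor 2 was 36766 CPM (others 16962 to 22986) and the Schwann cell sum of PNST tumor 4 was 253.7 (others 55.1 to 94.9). The platelet sum of PWT tumor 5 was 22.1 CPM (others 2.79 to 5.65) and the keratinocyte sum of PWT tumor 2 was 938.5 (others 9.75 to 30.2). The skeletal muscle sum was 31.9 CPM in PNST tumor 6 (others 6.34 to 14.9) and 503.6 in PWT tumor 1 (others 5.57 to 184). PWT tumor 2 was thus apart in both PDGFC and keratinocyte markers, and FS tumor 2 in KIT and 3 marker lists; a relation between them was not tested.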

How the results depend on the processing

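Of 1231 fold changes of members under alternatives, 1144 kept their direction and side of the threshold, 34 lost a call, 5 gained 1 and 48 changed sign; of 24 type means in CPM without TMM factors, 24 moved by less than 1 SD. Causes were not tested. No paired analysis was possible because the replicate numbers were given in accession order and pair no tumors.

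Members called for FS against both others went from 1 to 0 by histology (0 to 1 over the fits without 1 tumor). For FS against PNST they went from 1 to 0 with RLE factors, total counts only, all genes, histology, both relabeled tumors left out, prefix as a term, PNST tumors 2 and 3 summed and S1 alone, and to 2 with DESeq2 (0 to 2 without 1 tumor). For FS against PWT they were 0 by histology, without both relabeled tumors and with prefix (0 to 1 without 1 tumor). Correlations that passed went from 0 to 1 with PNST tumors 2 and 3 summed (0 to 1 without 1 tumor), each time PDGFD with PDGFRB.

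Some signs changed. For PNST against both others, PDGFD was 0.01 with all genes, 0.14 by histology and 0.00 with tumors 2 and 3 summed; PDGFRB was 0.00 with all genes, 0.12 by histology and 0.02 without the relabeled tumors; KIT was -0.13 in S1. For PWT against both others, PDGFB was -0.34, PDGFC 1.02 and PDGFRA 0.52 in S2; with prefix PDGFC was 0.18 and KITLG -0.13. For FS against PNST, KIT was -0.02 by histology and -0.06 without the relabeled tumors; for FS against PWT, KITLG was -0.02 by histology. For PNST against PWT, PDGFC was -0.06 by histology and -0.42 with prefix, and PDGFD -0.12 with prefix. PDGFA could not be tested in S2, where it was below the count minimum.

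Leaving out 1 tumor gave ranges across 0. For FS against both others they were -0.42 to 0.58 for KIT and -0.14 to 1.14 for PDGFC; against PNST, -0.63 to 0.54 for KIT, -0.20 to 1.09 for PDGFC, -0.04 to 1.22 for PDGFD and -0.17 to 0.89 for PDGFRB; against PWT, -0.14 to 0.88 for KIT and -0.09 to 1.30 for PDGFC. For PNST against both others they were -0.20 to 0.54 for KIT, -0.48 to 0.14 for PDGFC, -0.74 to 0.24 for PDGFD and -0.21 to 0.35 for PDGFRB; against PWT, -0.12 to 0.60 for PDGFA, -0.09 to 0.57 for PDGFC and -0.31 to 0.57 for PDGFD. For PWT against both others KITLG ran from -0.08 to 0.44. Pearson's r ran from -0.07 to 0.23 for PDGFC with PDGFRA, -0.15 to 0.31 for KITLG with KIT and -0.14 to 0.07 for PDGFRA with PDGFRB. NEB in FS ran from -0.07, without FS tumor 2, to 4.57.

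Depth limits several members: counting error in FS, PNST and PWT was 22.2%, 31.6% and 47.5% of the mean for PDGFA, 22.3%, 16.7% and 28.7% for KIT, 21.7%, 23.9% and 25.0% for KITLG and 19.6%, 21.1% and 22.1% for PDGFB. Type and prefix overlap in part: with prefix as a term, PWT calls over all genes went from 327 to 0. The types rest partly on expression in these libraries, and by histology FS calls over all genes went from 1457 to 205. By histology they also went from 1099 to 0 for FS against PNST and from 1726 to 5 for FS against PWT. For PWT against both others they went from 327 to 0, and for PNST against PWT from 26 to 0.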

Other observations

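Marker lists not set beside a member gave these results. Of 10 fibroblast markers, led by COL1A1, DESeq2 called 4 in FS and 2 in PWT. By edgeR 3 (30%) were called higher in FS (LUM, COL1A1 and COL3A1), beside 9.46% of all genes. In PWT edgeR called 1 (10%) lower (COL1A1, log2 -2.03, adjusted p 0.0458), beside 2.12% of all genes. The PWT call held in 9 of 26 alternatives and in 5 of the 16 fits without 1 tumor (FS tumors 2, 3 and 4 and PNST tumors 5 and 6), with adjusted p from 0.000891 to 0.557; it was -1.28 with prefix as a term and -0.94 among S2 tumors. In FS 5 of 10 had log2 fold changes above 0 (median 0.09). DCN (-1.38, adjusted p 0.107, called by DESeq2 at 0.0432), MFAP5 (-1.22), PI16 (-1.22) and FAP (-1.11) went the other way and were not called by edgeR. Without FS tumor 2 edgeR called none of LUM, COL1A1 and COL3A1 in FS, at log2 fold changes of 1.53, 0.82 and 0.39. These FS calls held in 9, 21 and 13 of 26 alternatives, and in 5, 15 and 8 of the 16 fits without 1 tumor. Of 6 adipocyte markers, led by LPL, edgeR called 0 in FS, 1 had an unadjusted p under 0.05 and DESeq2 called 1; summed medians were 50.7, 85.9 and 153 CPM in FS, PNST and PWT. Of 2 tested skeletal muscle markers, 2 (MYH7 and NEB) were called higher in FS, and DESeq2 gave no adjusted p for either. Without FS tumor 2 the log2 fold change of NEB was -0.07, and MYH7 could not be tested there or without PNST tumor 1, PWT tumor 1 or PWT tumor 5, being below the count minimum.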
